A study of Mus musculus with 2 samples.

Results

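B cell precursors were picked out of single-cell RNA counts of CD45+ cells from the mouse spinal cord. CD45 marks leukocytes and microglia. A cell was a member when it held 1 or more counts of Cd79a, 1 or more counts over Vpreb1, Vpreb3, Rag1 and Igll1 together, and no count of Ighd, Cd3d, Cd3e, Cd3g, P2ry12 or Siglech. The members were therefore selected on their own counts, and the levels of these genes are given as a description with no test. The rule found 322 cells among 20504 kept cells (1.57%). They comprised 158 and 78 cells of inhibitor mice 1 and 2, against 46 and 40 cells of untreated mice 1 and 2. Kept cells carried 1 hashtag, the antibody tag of their mouse, and had at most 20% of their counts in mitochondrial (mt-) genes.

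All 4 mice were C57BL/6 animals with experimental autoimmune encephalomyelitis (EAE), a mouse model of multiple sclerosis, and their cells were taken 15 days after induction. In one group 2 mice with EAE received an inhibitor, and in the other 2 mice with EAE received none. The sources used here do not say which inhibitor was given, what it acts on or how it was dosed, nor how old the mice were. Cells of all mice were pooled on 1 BD Rhapsody run of about 28678 loaded cells, so they share capture, library and sequencing, and no cell index was shared between mice. The labels name each mouse by its hashtag as a replicate within 1 pooled sample, and p-values measure the spread between 2 animals per group.

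B cells arise in the bone marrow in steps that follow the rearrangement of their antibody genes. Rag1 and Rag2 cut the DNA at the heavy chain locus. The resulting heavy chain (Ighm) pairs with a surrogate light chain, made of Vpreb1 or Vpreb2 and Igll1, and with the signalling chains Cd79a and Cd79b to form the pre-B cell receptor. Signals from that receptor drive a burst of division in large pre-B cells. Small pre-B cells then rearrange a light chain (Igkc or Iglc), become immature IgM+ B cells and gain IgD (Ighd) as they mature. B cell precursors have also been described in the meninges of mice.

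The members carried the markers given for B cell precursors, although not all of them in every cell. Of the 322 members, 315 (97.8%) had a count of Vpreb3, a chaperone-like protein of the pre-B cell receptor, 200 (62.1%) had Ebf1 and 193 (59.9%) had Sox4, both transcription factors of early B lineage cells. Rag1 was found in 89 members (27.6%). Between them 156 members (48.4%) held 3 or 4 of these 4 markers. Among 235 mature B cells (Cd79a and Ighd present), Vpreb3 was found in 44.3%, Rag1 in 6.81%, Ebf1 in 45.5% and Sox4 in 20%. The markers were thus not confined to the members. In T cells of the same mice, which should lack them, Vpreb3 was found in 0.938% of 10872 cells, Rag1 in 0.129%, Ebf1 in 0.745% and Sox4 in 3.64%, at a median of 9198 counts per cell against 5248 in members.

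The rule let most members in through Vpreb3. It was the only one of the 4 precursor genes found in 210 members (65.2%). Just inside the threshold, 19 members held a single count over the 4 genes, with a median of 6 counts of Cd79a, against 15.5 over all members. Just outside it, 17 cells met every other condition and had exactly 1 count of Ighd, and 89 more had 2 or more. The B cell gene Ms4a1 (CD20) was found in 42.1% of the 19 cells inside, 52.9% of the 17 cells outside and 33.5% of all members. A further 112 cells were left out for a count of Cd3d, Cd3e, Cd3g, P2ry12 or Siglech, of which 55 and 31 came from inhibitor mice, against 12 and 14 from untreated mice. Their median total was 9228.5 counts.

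Most members held transcripts of a light chain, and few those of the surrogate light chain. Ighm was found in 317 members (98.4%), against 29.98% of T cells, and a light chain constant gene (Igkc, Iglc1, Iglc2 or Iglc3) in 294 (91.3%). Dntt (TdT), the enzyme of pro-B cells that adds bases at heavy chain joints, was found in 6 members. Vpreb1, Vpreb2 or Igll1 was found in 27 members (8.39%), with 6 and 13 cells in inhibitor mice, against 7 and 1 cells in untreated mice. By these genes most members were B lineage cells with heavy and light chain transcripts and no Ighd count, and few had surrogate light chain counts. The genes do not tell small pre-B cells from immature B cells. The name B cell precursors is therefore kept here as the label of the rule.

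Vpreb1 and Igll1 went together: Vpreb1 was found in 18 members, Igll1 in 23 and both in 14. Both genes lie on mouse chromosome 16 (Vpreb1, chr16:16868403-16870843, minus strand; Igll1, chr16:16860671-16863985, minus strand), while Vpreb3, found in nearly all members, lies on chromosome 10 (chr10:75943057-75949657, plus strand; GRCm38, GENCODE vM21). Their promoters are shown because these 3 genes are among the 4 precursor genes of the rule, with Rag1 the other. Each is the RefSeq window from 250 bases before to 50 bases after a transcript start (GRCm38.p6). For Vpreb3 and Vpreb1 that start lies inside the gene coordinates above. The windows are read 5′ to 3′ on the gene's strand, with every E-box in capitals. An E-box (CANNTG) is bound by Tcf3, a transcription factor of the B lineage, among others.
Vpreb3 promoter (chr10:75948050-75948349, plus strand): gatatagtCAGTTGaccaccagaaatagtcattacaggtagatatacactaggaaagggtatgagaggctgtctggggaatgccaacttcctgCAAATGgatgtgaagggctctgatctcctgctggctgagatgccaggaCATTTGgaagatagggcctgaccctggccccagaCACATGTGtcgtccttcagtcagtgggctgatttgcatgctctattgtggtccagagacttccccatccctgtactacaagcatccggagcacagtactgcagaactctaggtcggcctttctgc
Vpreb1 promoter (chr16:16869206-16869505, minus strand): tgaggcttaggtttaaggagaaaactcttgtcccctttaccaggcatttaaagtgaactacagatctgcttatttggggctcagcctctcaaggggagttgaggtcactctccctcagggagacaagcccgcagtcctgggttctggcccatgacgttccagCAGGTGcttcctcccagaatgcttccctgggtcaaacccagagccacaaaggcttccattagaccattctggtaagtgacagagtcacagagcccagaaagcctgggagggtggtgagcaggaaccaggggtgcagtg
Igll1 promoter (chr16:16863936-16864235, minus strand): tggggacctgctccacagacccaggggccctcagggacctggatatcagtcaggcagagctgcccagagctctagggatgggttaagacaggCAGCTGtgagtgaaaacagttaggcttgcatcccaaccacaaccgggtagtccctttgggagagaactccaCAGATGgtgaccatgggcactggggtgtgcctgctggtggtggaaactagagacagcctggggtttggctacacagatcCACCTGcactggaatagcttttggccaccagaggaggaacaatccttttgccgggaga
The Vpreb3 window held 5 E-boxes, of which the last pair overlap, the Vpreb1 window 1 and the Igll1 window 3. At least 1 E-box is present in 72.3% of the 32851 RefSeq promoter windows. The palindrome CCCNNGGG, the core recognised by Ebf1, occurred in the Igll1 window, starting at base 20, and in 13.7% of all windows. CANNTG and CCCNNGGG read the same on both strands, and their matches in these windows did not overlap each other. These letters are a description of the windows and not of binding.

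A few cells weighed heavily on the sums of single mice. Jchain, the joining chain of secreted antibodies and a gene of plasma cells, was found in no member of the inhibitor mice, against 1 member of untreated mouse 1 and 3 members of untreated mouse 2. Those cells held 4.49% of the precursor counts of untreated mouse 1 and 38.7% of those of untreated mouse 2. Their median was 31882.5 counts per cell and 2433.5 counts of Igkc, against 5208 and 26 in the other members. All 4 had Xbp1 and Mzb1, genes of antibody secretion. Results on some genes below are therefore also given without these cells, an alternative chosen after the data were seen. It is not given for every gene that moves. The Jchain cells held 0 counts of Rag1, Rag2, Il7r, Ebf1, Spib and Cxcr4, among others. Without them the level of such a gene in untreated mouse 2 is higher than the value printed. In the 44 genes listed first in the matrix, Igkc, Jchain, S100a8 and S100a9 among them, no nonzero count was below 4, so a 0 in such a gene is written as listed at 0, without a fold against it.

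Markers of other cells were present among the members' counts. Of 12 neutrophil markers all were detected in the summed members. Their summed level was 8795 and 14277 CPM (counts scaled to a sum of 1000000 per mouse) in inhibitor mice, against 634 and 376 CPM in untreated mice. In mature B cells it was 18764 and 528 CPM in inhibitor mice, against 527 and 19013.5 CPM in untreated mice, so there it did not follow the groups. The neutrophil granule gene Ngp was found in 66.8% of members, 62.6% of mature B cells and 77.4% of T cells, 53.1% of the cells in no gate and 92.9% of the neutrophil lineage cells. The T cell list, with Cd3d, Cd3e and Cd3g at 0 by the rule, summed to 220 and 197 CPM in inhibitor mice, against 113 and 148 CPM in untreated mice. Most of that sum was Cd2, at 171 and 148 CPM in inhibitor mice, against 65.2 and 114 CPM in untreated mice. Cd2 was found in 77 members and in 70 mature B cells, and whether its counts came from T cells was not tested. Of 8 erythroid markers, only Car2 was detected. Among the members 106 (32.9%) held 2 or more counts of at least 2 markers of other cell types (neutrophils, T cells, NK cells, microglia, monocytes and macrophages, erythroid cells). Where Cd2 was one of those markers, the source of its counts was not tested either.

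The share of B cell precursors was higher in both inhibitor mice than in both untreated mice. Precursors made up 2.79% and 1.51% of kept cells in inhibitor mice, against 0.974% and 0.807% in untreated mice. The mean was 2.15% ± 0.909 in inhibitor mice and 0.891% ± 0.118 in untreated mice (SD, n = 2 each), a 2.42-fold ratio. An exact two-sided permutation test over the 4 mice gave p = 0.333, the smallest value that 2 against 2 mice allow. The 95% Wilson intervals, which cover counting error only, ran from 2.40 to 3.26% and 1.21 to 1.88% in inhibitor mice, against 0.731 to 1.30% and 0.593 to 1.10% in untreated mice. Inhibitor mouse 1 lay apart from all others, and the interval of inhibitor mouse 2 overlapped that of untreated mouse 1.

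**Figure D1:**
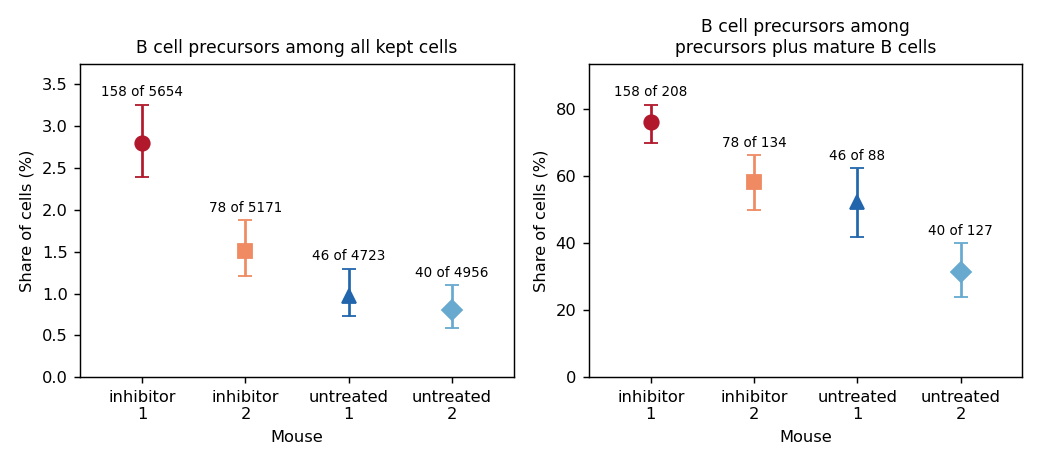
Share of B cell precursors (y axes, %) in each mouse (x axes), among all kept cells (left) and among precursors plus mature B cells (right); points are mice, bars are 95% Wilson intervals and the numbers are cells. Both inhibitor mice lie above both untreated mice in each panel, at 2.79% and 1.51% against 0.974% and 0.807% on the left.

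The number of precursors was also tested beside the other gated classes of cells with edgeR's quasi-likelihood test, adjusted after Benjamini and Hochberg over 8 classes. The log2 fold change of precursors was 1.27 ± 0.43 (SE), with an adjusted p of 0.0545. By the same edgeR test the adjusted p was 0.118 with class counts scaled by TMM, and 0.128 among cells outside the neutrophil lineage. At the threshold of 0.05, edgeR called 0 of the 8 classes (0%), and the unadjusted p lay under it in 2, the precursors (0.00963) and the neutrophil lineage cells (0.0136). The neutrophil lineage took 43.3% and 27.8% of kept cells in inhibitor mice, against 18.9% and 14.3% in untreated mice, with a log2 fold change of 1.10 ± 0.40 and an adjusted p of 0.0545. Outside that class, precursors were 4.93% and 2.09% of cells in inhibitor mice, against 1.20% and 0.942% in untreated mice. Without inhibitor mouse 1 the log2 fold change was 0.76, and the share of precursors exceeded that of untreated mice by 0.618 percentage points, against 1.26 with it. In such data a larger share of one class and a smaller number of cells of the others cannot be told apart.

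The balance between precursors and mature B cells pointed the same way. Mature B cells (Cd79a and Ighd present, with none of Cd3d, Cd3e, Cd3g, P2ry12 and Siglech) numbered 50 and 56 in inhibitor mice, against 42 and 87 in untreated mice. Precursors made up 76.0% and 58.2% of both classes together in inhibitor mice, against 52.3% and 31.5% in untreated mice. The mean difference was 25.2 percentage points, with p = 0.333 in the exact permutation test, again its smallest value. Without untreated mouse 2 the difference was 14.8 percentage points, and without untreated mouse 1 it was 35.6. Mature B cells themselves had a log2 fold change of -0.43 ± 0.43 in the edgeR fit of classes, with an adjusted p of 0.449.

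Within the members, cells with many cell cycle counts held most of the surrogate light chain. The cell cycle list, fixed as 30 genes of which 29 have a row, summed to 20 or more counts in 59 members (18.3%), against 3.83% of mature B cells. Of these 59 cells 20 (33.9%) had Vpreb1, Vpreb2 or Igll1, against 7 of the other 263 members (2.66%). Their median total was 10948 counts, against 4566 in the other members. After every cell was thinned to 2500 counts the shares were 25.4% of 59 cells and 2.16% of the 232 other members that reach that depth. By mouse, the thinned share among cells with many cycle counts was 18.2% and 31.6% in inhibitor mice, against 38.5% and 0% in untreated mice, the last resting on 5 cells.

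The same split was made for other genes of B cell development. After thinning, Ms4a1 was found in 6.78% of members with many cycle counts and 34.9% of the others, and Ccr7, a homing receptor of maturing B cells, in 6.78% and 23.7%. A light chain constant gene was found in 76.3% and 94.4%, and the B lineage factor Pax5 in 35.6% and 60.3%. Myb, a transcription factor of dividing progenitors, was found in 66.1% and 58.2%, and Il7r, the receptor for the cytokine that sustains pro-B and pre-B cells, in 42.4% and 38.4%. Rag1 ran the other way from the surrogate light chain, in 10.2% and 25.9%. Ebf1 was found in 45.8% and 59.5%. The pooled shares did not hold in every mouse. In untreated mouse 2, with 5 cells of many cycle counts, Ms4a1 was found in 60% of those and 36.7% of the others, Ccr7 in 40% and 16.7%, and a light chain constant gene in 100% and 93.3%. Il7r was found in fewer of the cells with many cycle counts in both untreated mice, at 38.5% against 45.2% and 20% against 46.7%. The shares describe pooled cells of 4 mice and carry no test.

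**Figure D2:**
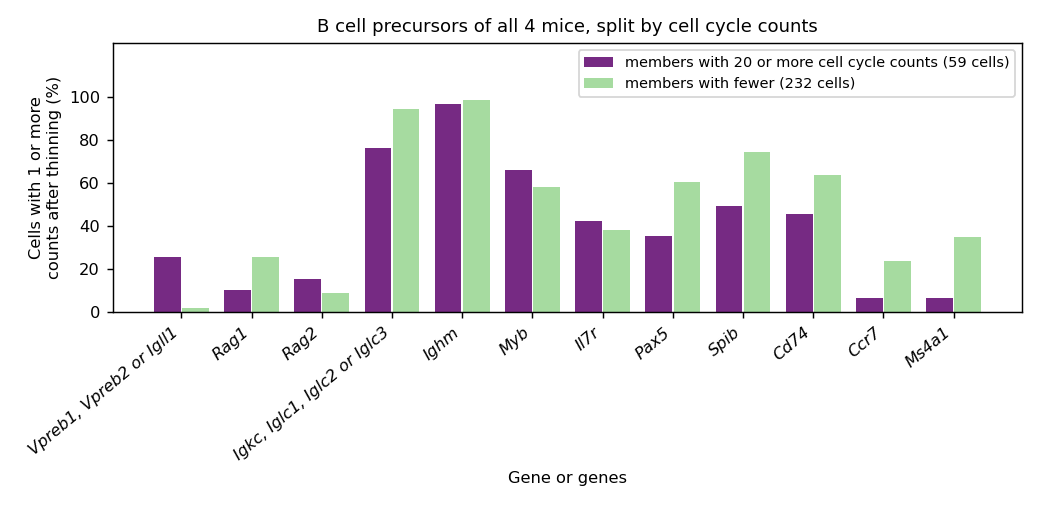
Share of B cell precursors with 1 or more counts of each gene or gene group (y axis, %) after thinning each cell to 2500 counts, for the 59 members with 20 or more cell cycle counts and 232 members with fewer. The surrogate light chain bar stands at 25.4% against 2.16%, and the Ms4a1 bar at 6.78% against 34.9%.

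The share of cycling members was not resolved between the groups. With 2 or more cell cycle counts after thinning as the limit, 35.5% and 42.3% of members cycled in inhibitor mice, against 50% and 34.3% in untreated mice (exact permutation p = 1). The direction turned when inhibitor mouse 1 was left out, with a difference of 0.111 percentage points, and when untreated mouse 1 was left out, with 4.57. A further draw of thinned counts from the same 71 cells of inhibitor mouse 2 gave 45.1% in place of 42.3%. The difference of 0.111 is smaller than that move. At that limit 45.1% of mature B cells also counted as cycling before thinning, against 48.8% of members, so the limit did not separate the classes. At 20 or more counts the shares were 13.9% and 24.4% in inhibitor mice, against 28.3% and 12.5% in untreated mice.

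Ighm was close to universal in every mouse. After thinning it was found in 98.6% and 98.6% of members in inhibitor mice, against 95.5% and 94.3% in untreated mice, a mean difference of 3.72 percentage points (exact permutation p = 0.333, the smallest possible). In that draw of thinned counts the groups did not overlap, but before thinning they did, at 98.7% and 100% against 93.5% and 100%. A further draw from the same cells of inhibitor mouse 2 gave 100%, so the thinned shares move with the draw.

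Set beside mature B cells, the precursors differed in genes that the rule did not name. This is a description, since the rule chose the cells. Over genes with a mean of 50 CPM or more in either class, those with the largest ratio in the mouse where it was smallest were all genes of DNA replication, chromatin or mitosis. Among them were the histones H3c3, H2ac8, H2ac6, H2ac7 and Hist1h2ap, the checkpoint mediator Clspn, the mitotic kinases Plk1 and Pbk and the cohesin acetyltransferase Esco2. Hist1h2ap, for instance, had 869 and 1360.5 CPM in precursors of inhibitor mice and 1575 and 792 CPM in those of untreated mice, against 143 and 106 CPM and 318 and 130 CPM in the mature B cells of the same mice. Its ratio lay between 4.95 and 12.9 in the 4 mice. Histone genes have near-identical copies, and the split of reads among them is uncertain.

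Apart from Ighd, which the rule set to 0, the genes with the smallest ratios were Cr2, Gpr174, Gpr183, Rasgef1b, Gimap4, Ms4a4c, H2-DMb1, Gimap6 and Cd86. Cr2 is complement receptor CD21 of mature B cells, Gpr183 (EBI2) guides B cells within lymphoid tissue, H2-DMb1 loads peptides on MHC class II and Cd86 is a costimulatory ligand. Cr2 had 0.984 and 0 CPM in precursors of inhibitor mice and 2.17 and 3.08 CPM in those of untreated mice, against 43.3 and 65.0 CPM and 122 and 166 CPM in mature B cells. Gimap6 had 55.1 and 18.97 CPM and 67.3 and 89.3 CPM in precursors, against 341 and 341 CPM and 486 and 567 CPM in mature B cells.

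Shares of cells thinned to 2500 counts gave the same picture for the developmental genes. Sox4 was found in 59.1% of 291 precursors and 16.4% of 226 mature B cells, Myb in 59.8% and 12.8%, Il7r in 39.2% and 6.64%, and Xrcc6 in 31.6% and 8.41%. Ms4a1 was found in 29.2% and 69.5%, Fcmr, the IgM receptor, in 12.4% and 53.5%, and Cd74, the MHC class II chaperone, in 60.1% and 92.0%. Pax5, which stays on through B cell life, was found in 55.3% of each class. Among the mature B cells 106 of 235 also had a precursor gene, so that only the Ighd count kept those cells out of the precursors.

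**Figure D3:**
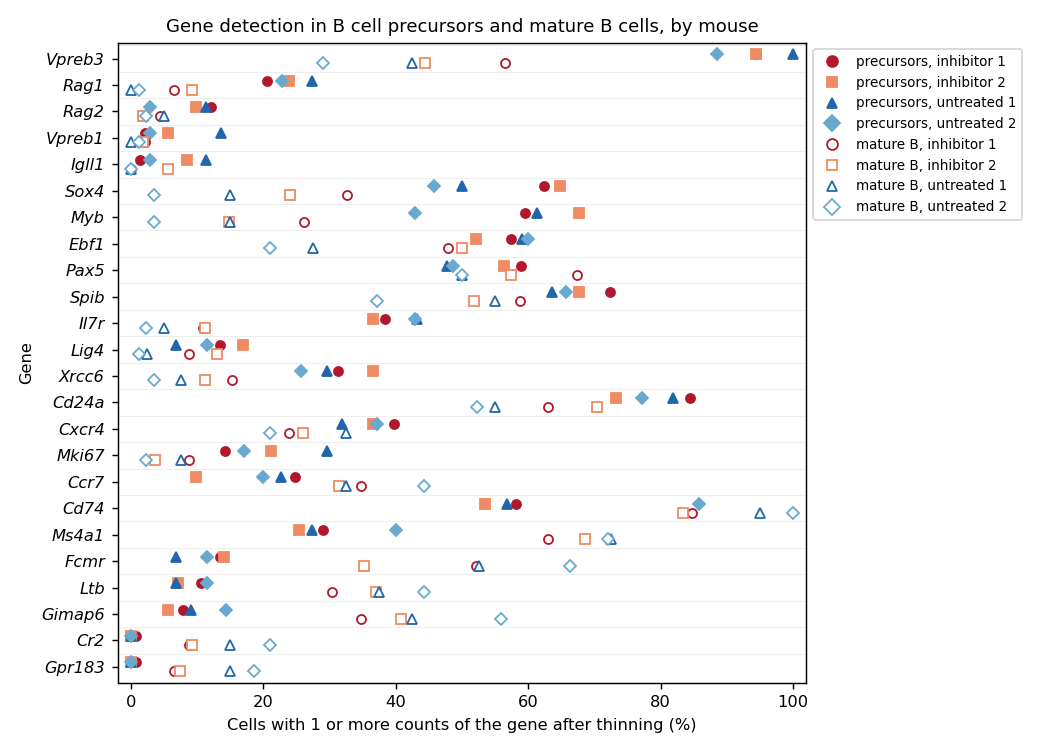
Share of cells with 1 or more counts of each gene (x axis, %) after thinning to 2500 counts, for B cell precursors (filled symbols) and mature B cells (open symbols) of each of the 4 mice. Filled and open symbols stand apart in every mouse for Vpreb3, Sox4, Il7r, Ms4a1 and Gimap6, and overlap for Pax5.

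The adaptor Stap1, which is tyrosine-phosphorylated downstream of the B cell receptor, was found in a smaller share of members than of mature B cells. It was present in 43 of 322 members (13.4%), against 31.9% of mature B cells, 25.9% of T cells and 29.7% of neutrophil lineage cells at higher depth. After thinning it was found in 8.25% of precursors and 22.1% of mature B cells. Its level was 70.8 and 36.1 CPM in precursors of inhibitor mice, against 60.8 and 24.6 CPM in those of untreated mice, with a log2 fold change of 0.26 ± 0.67 and an adjusted p of 0.980 by edgeR. Stap2 had no count in any member or mature B cell.

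Gene expression of the members was then compared between the groups on counts summed per mouse. The sums were 1016580 and 527014 counts in inhibitor mice, against 460307 and 324608 in untreated mice, and median totals per cell were 4865.5 and 5340 in inhibitor mice, against 7118.5 and 5087 in untreated mice. Of 6895 genes tested with edgeR's quasi-likelihood test, 2 had an adjusted p under 0.05 (0.029%), both higher in inhibitor mice: S100a8 and S100a9. A further 432 (6.27%) including them had an unadjusted p under 0.05. In 22.2% of the genes tested both inhibitor mice lay above both untreated mice, and in 15.5% both lay below. The median log2 fold change of all genes tested was 0.000835, and 49.9% of them had a negative one. In simulated counts of the same depth the test called 20 of 200 genes changed 4-fold (10%). A gene that was not called may therefore still differ by that much.

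S100a8 and S100a9, the subunits of calprotectin and abundant in neutrophils (chr3:90668978-90670035, plus strand, and chr3:90692632-90695721, minus strand), rose in inhibitor mice by this test. S100a9 had 3126 and 4341 CPM in precursors of inhibitor mice, against counts listed at 0 in both untreated mice (adjusted p = 0.000149). S100a8 had 2378 and 4353 CPM in inhibitor mice and was likewise listed at 0 in both untreated mice (adjusted p = 0.000766). These values came from 8 cells, 7 of inhibitor mouse 1 and 1 of inhibitor mouse 2. The 8 cells had a median of 7 of the 10 other neutrophil markers and of 4.5 counts of Cd79a, against 1 marker and 16 counts in the other members. Both calls were lost when members needed 2 or more counts over the 4 precursor genes. They were also lost when cells with 2 or more markers of other types were left out. That loss was fixed in advance, since S100a8 and S100a9 are themselves among those markers and each of the 8 cells held both. In mature B cells S100a9 had 6379 CPM in inhibitor mouse 1 and 7280 CPM in untreated mouse 2, and was listed at 0 in the other mice. The neutrophil lineage share of each mouse is given above, and its part in the result in precursors was not tested.

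The number of calls depended on single mice. It was 5 without inhibitor mouse 1, 6 without inhibitor mouse 2, 325 without untreated mouse 1 and 177 without untreated mouse 2, where the lone mouse of a group is assumed to vary like the other group. DESeq2's Wald test called 14 genes, 7 higher and 7 lower in inhibitor mice.

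Among genes whose groups did not overlap, the next in order of p missed the threshold, and several rested on the Jchain cells. The lack of overlap in their values was therefore a condition of the choice. Srm (spermidine synthase) had 2.95 and 7.59 CPM in inhibitor mice, against 113 and 111 CPM in untreated mice, a log2 fold change of -4.55 ± 0.70 with an adjusted p of 0.282. Without the Jchain cells untreated mouse 1 had 114 CPM of Srm and untreated mouse 2 had 0. Prdx1, a peroxiredoxin, had 192 and 139 CPM in inhibitor mice, against 545 and 490 CPM in untreated mice (-1.72 ± 0.30 on the log2 scale, adjusted p = 0.464 by edgeR). Without those cells untreated mouse 2 had 126 CPM of Prdx1, below both inhibitor mice. Gstp1, a glutathione transferase, had 73.8 and 49.3 CPM in inhibitor mice, against 267 and 246 CPM in untreated mice (-2.12 ± 0.38, adjusted p = 0.528 by edgeR), and 173 and 151 CPM in untreated mice without those cells.

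The remaining genes of that order fell into 2 sets. Lcn2, Mmp8 and Ifitm6, the first pair neutrophil granule genes, were found in 3, 14 and 12 members, and Lcn2 and Mmp8 were listed at 0 in both untreated mice. Jchain and Gimap7 pointed the other way. Gimap7, a GTPase of lymphocytes, had 1.97 and 0 CPM in inhibitor mice, against 43.4 and 111 CPM in untreated mice, and without the Jchain cells 9.10 and 0 CPM in untreated mice. None of the 5 passed the test, at adjusted p from 0.282 to 0.538 by edgeR.

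Of the pre-B cell receptor list, 8 genes that the rule did not use were tested and none was called. Both inhibitor mice lay above both untreated mice in 4 of the 8 (Ighm, Cd79b, Syk and Blk), against 22.2% of all genes, and below in 0, against 15.5%. The median log2 fold change was 0.21. Without the Jchain cells Syk was the 1 gene above and Btk the 1 gene below, against 18.2% and 13.5% of all genes. Among the receptor's own chains, Vpreb3 had 2536 and 2599.55 CPM in inhibitor mice, against 1903 and 1648 CPM in untreated mice, Cd79a 2943 and 2738 CPM against 2114 and 2344 CPM, and Cd79b 2054 and 1947 CPM against 1419 and 1543 CPM. The groups did not overlap for any of these 3, of which Vpreb3 and Cd79a were used by the rule and are not tested. Cd79b had a log2 fold change of 0.35 ± 0.17 (adjusted p = 0.790 by edgeR). Without the Jchain cells Vpreb3 came to 1974 and 2442 CPM in untreated mice. Ighm had 6673 and 6284 CPM in inhibitor mice, against 5737 and 5231 CPM in untreated mice (0.16 ± 0.10, adjusted p = 0.843 by edgeR), and 6007 and 8089 CPM in untreated mice without those cells, so that its groups then overlapped.

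The surrogate light chain genes overlapped between the groups. Vpreb1 had 28.5 and 116 CPM in inhibitor mice, against 348 and 33.9 CPM in untreated mice. Igll1, whose product is also called lambda5, had 86.6 and 100.6 CPM in inhibitor mice, against 348 and 33.9 CPM in untreated mice. Vpreb2 had 0 and 1.90 CPM in inhibitor mice, against 152 and 0 CPM in untreated mice, and was not tested. Untreated mouse 1 was the highest and untreated mouse 2, with 1 cell positive for Vpreb1 and Igll1, among the lowest.

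Of the signalling genes, the kinase Syk had 753 and 749.5 CPM in inhibitor mice, against 528 and 437 CPM in untreated mice. Its log2 fold change was 0.56 ± 0.22 (adjusted p = 0.779 by edgeR), and 0.34 without the Jchain cells. The Src family kinase Blk had 233 and 262 CPM in inhibitor mice, against 189 and 172.5 CPM in untreated mice (0.38 ± 0.31). The groups overlapped for the kinases Lyn and Btk, the adaptor Blnk and the phospholipase Plcg2, with log2 fold changes from -0.25 to 0.22.

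**Figure D4:**
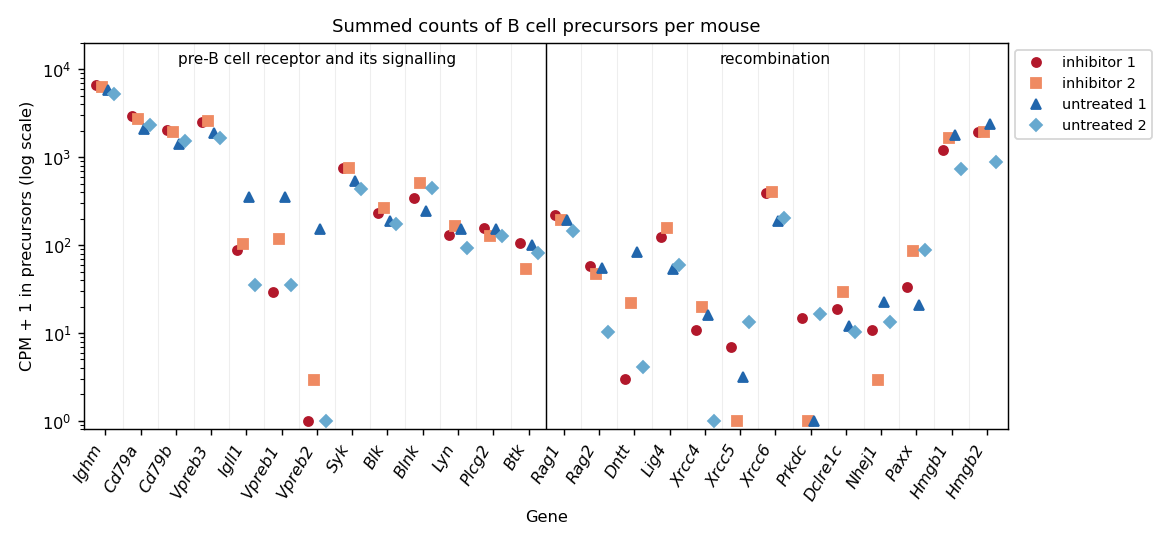
Level of each gene of the pre-B cell receptor and recombination lists (x axis) in the summed B cell precursors of each mouse (y axis, CPM + 1, log scale). The inhibitor mice lie above the untreated mice for Vpreb3, Cd79a, Cd79b, Syk, Lig4 and Xrcc6, and untreated mouse 1 is the highest for Vpreb1, Igll1, Vpreb2 and Dntt.

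Of the recombination list, 7 genes apart from Rag1 were tested and none was called, with a median log2 fold change of 0.19. Xrcc6 and Lig4, the Ku70 subunit and the ligase of DNA end joining, were the 2 genes whose inhibitor mice lay above both untreated mice, against 22.2% of all genes, and without the Jchain cells Paxx was a further one. Xrcc6 had 392 and 404 CPM in inhibitor mice, against 185 and 200.2 CPM in untreated mice, a log2 fold change of 0.97 ± 0.29 (adjusted p = 0.708 by edgeR). Its fold change was 0.72 without the Jchain cells and 0.16 without cells that hold markers of other types. Lig4 had 122 and 156 CPM in inhibitor mice, against 52.1 and 58.5 CPM in untreated mice (1.24 ± 0.44, adjusted p = 0.726 by edgeR), and 0.94 without the Jchain cells. Unadjusted, 2 of the 7 genes had p under 0.05, against 6.27% of all genes.

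The recombinase genes themselves overlapped between the groups. Rag1 had 219 and 190 CPM in inhibitor mice, against 193 and 145 CPM in untreated mice, and is not tested, since the rule used it. Rag2 had 56.1 and 45.5 CPM in inhibitor mice, against 54.3 and 9.24 CPM in untreated mice. The Jchain cells held 0 counts of Rag1 and Rag2, so without them both levels in untreated mouse 2 are higher. Dntt had 1.97 and 20.9 CPM in inhibitor mice, against 82.6 and 3.08 CPM in untreated mice, in 6 cells in all. Hmgb1 and Hmgb2, DNA-bending cofactors of the recombinase, overlapped between the groups, as did Paxx, an end-joining factor. Xrcc4, Xrcc5, Prkdc, Dclre1c and Nhej1, the other end-joining genes, had at most 18 counts in any mouse and were not tested.

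Transcription factors of the B lineage gave no call among 21 tested. Both inhibitor mice lay above both untreated mice in 10 of them, against 22.2% of all genes, and below in 1, against 15.5%, with a median log2 fold change of 0.25. Without the Jchain cells they lay above in 4 and below in 2 of the 21, against 18.2% and 13.5% of all genes. Sox4 had 899 and 975 CPM in inhibitor mice, against 597 and 400.5 CPM in untreated mice, a log2 fold change of 0.84 ± 0.24 (adjusted p = 0.708 by edgeR) that was 0.57 without the Jchain cells. Myb had 965 and 941 CPM in inhibitor mice, against 632 and 496 CPM in untreated mice (0.68 ± 0.21, adjusted p = 0.708 by edgeR), and 0.40 without those cells. Ebf1 had 626 and 620.5 CPM in inhibitor mice, against 504 and 653 CPM in untreated mice, so that its groups overlapped. The Jchain cells held 0 counts of Ebf1, so without them its level in untreated mouse 2 lies further above both inhibitor mice. Spib and the coactivator Pou2af1 overlapped as well, at log2 fold changes of 0.26 ± 0.28 and 0.08 ± 0.28.

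**Figure D5:**
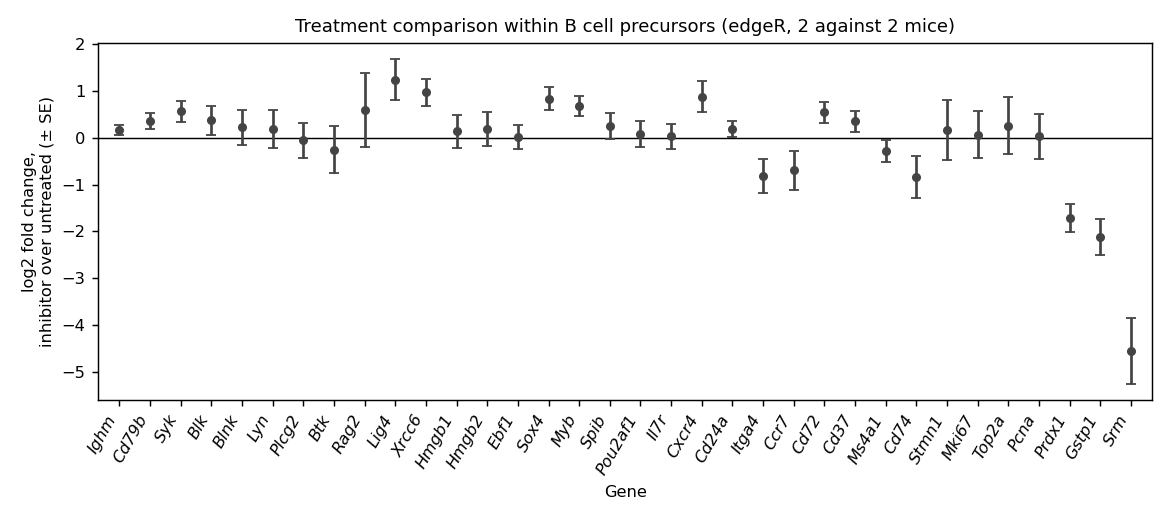
Log2 fold change of inhibitor over untreated mice (y axis; points are edgeR estimates, bars are ± SE) for named genes with counts in the precursors of all 4 mice (x axis). Xrcc6, Lig4 and Sox4 lie near 1 and Srm at -4.55; none of the genes drawn passed an adjusted p of 0.05.

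Receptors for cytokines and for homing did not pass the test either. Il7r had 427 and 360.5 CPM in inhibitor mice, against 417 and 317 CPM in untreated mice (0.03 ± 0.27). The Jchain cells held 0 counts of Il7r, so without them its level in untreated mouse 2 is above 317 CPM. Tnfrsf13c, the BAFF receptor, Il2rg and Jak1 overlapped between the groups. Of 16 homing and adhesion genes tested, both inhibitor mice lay above both untreated mice in 3 and below in 3, against 22.2% and 15.5% of all genes. Cxcr4, the CXCL12 receptor that holds precursors in bone marrow, had 295 and 243 CPM in inhibitor mice, against 159 and 120.1 CPM in untreated mice (0.88 ± 0.33, adjusted p = 0.744 by edgeR). Without the Jchain cells Cxcr4 had 166 and 196 CPM in untreated mice. Itga4, an integrin chain of leukocyte entry into tissue, had 143 and 213 CPM in inhibitor mice, against 256 and 333 CPM in untreated mice (-0.82 ± 0.36, adjusted p = 0.780 by edgeR), and 177 and 317 CPM in untreated mice without the Jchain cells, so that the groups then overlapped. Cd24a and Ccr7 had log2 fold changes of 0.19 ± 0.18 and -0.69 ± 0.42.

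Maturation genes gave no call among 17 tested. Cd74 had 2433 and 1922 CPM in inhibitor mice, against 1788 and 5400.36 CPM in untreated mice, where untreated mouse 2 stood apart. Cd72, a B cell co-receptor, had 1385 and 998 CPM in inhibitor mice, against 784 and 764 CPM in untreated mice (0.55 ± 0.22), and without the Jchain cells 821 and 1246 CPM in untreated mice, so that the groups then overlapped. Ms4a1 and Cd37 had log2 fold changes of -0.28 ± 0.24 and 0.36 ± 0.22.

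The light chain genes showed how far 4 cells reached. Igkc had 5986 and 5273 CPM in inhibitor mice, against 6789 and 52543 CPM in untreated mice, a log2 fold change of -2.53 ± 0.77 (adjusted p = 0.708 by edgeR). Without the Jchain cells Igkc had 4292 and 9993 CPM in untreated mice and a log2 fold change of -0.32. Iglc1 had 954 and 947 CPM in inhibitor mice, against 1317 and 1423 CPM in untreated mice (-0.61 ± 0.19, adjusted p = 0.708 by edgeR), and -0.53 without those cells. Iglc2 and Iglc3 had log2 fold changes of -0.30 ± 0.22 and 0.18 ± 0.35; reads of the lambda constant genes may be shared among near-identical copies.

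Cell cycle genes followed single mice. Of 27 tested, both inhibitor mice lay above both untreated mice in 3 and below in 1, against 22.2% and 15.5% of all genes, and none was called. Mki67, a marker of dividing cells, had 606 and 558 CPM in inhibitor mice, against 862 and 213 CPM in untreated mice. The whole list summed to 4303 and 4945 CPM in inhibitor mice, against 6398 and 1965 CPM in untreated mice. Untreated mouse 1 was the highest and untreated mouse 2 the lowest for Mki67, Top2a and Stmn1, and the log2 fold changes of Stmn1, Mki67, Top2a and Pcna lay between 0.03 and 0.26.

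The treatment difference in precursors was last set against that in mature B cells, in a model with the mouse as a block. Of 7838 genes tested, 0 were called (0%) by edgeR, 276 had an unadjusted p under 0.05, and 0 were called with DESeq2's size factors. The smallest p belonged to Cxcl2, a neutrophil-attracting chemokine, then Srm, Ssr2, Bzw2 and Lipc, all with an adjusted p of 0.999. Bzw2, a translation regulator, had 73.8 and 75.9 CPM in precursors of inhibitor mice, against 185 and 148 CPM in untreated mice, while mature B cells had 63.6 and 143 CPM against 25.7 and 17.3 CPM. Without untreated mouse 1 the model called 19 genes, without inhibitor mouse 1 it called 15, without inhibitor mouse 2 it called 9 and without untreated mouse 2 it called 1. Sox4 and Il7r had log2 fold changes of 1.90 ± 0.43 and 2.31 ± 0.58 in mature B cells fitted alone, where 0 of 5966 genes were called and 243 had an unadjusted p under 0.05. Their differences between the classes, -0.99 ± 0.46 and -2.34 ± 0.58, had adjusted p of 0.999 by edgeR.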

How the data were processed

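A single count matrix was deposited by the authors, with whole numbers for 28482 genes in 25461 cells. Per the submitters' processing notes the build was GRCm38. How reads were aligned and counted, whether strand was used and whether molecules or reads were counted is not given in the sources used here. The deposited counts, by the name of the file, passed a step called DBEC. The 3943 columns with more than 1 hashtag (15.5%) were not used, and 1014 cells were removed by the limit of 20% mt- counts. Doublets within a mouse were not called; cells with markers of other types were left out as an alternative.

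Counts were summed per mouse over the members; CPM is a gene's count scaled to a sum of 1000000. Sums were tested with edgeR 4.0.16 (R 4.3.3, filterByExpr, TMM, glmQLFit, glmQLFTest) with Benjamini-Hochberg adjusted p-values at 0.05. DESeq2 1.42.0 was an alternative. The fits were tested on simulated data, where edgeR within precursors recovered 20 of 200 genes changed 4-fold (10%), with 0 false calls. Shares were tested by an exact two-sided permutation over the 4 mice (scipy 1.17.1), and thinning drew 2500 counts per cell, which left out 31 members. Figures used matplotlib 3.10.9.

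The members, gene lists and tests were chosen with earlier results of these data known. Named were the pre-B cell receptor and recombination lists, the 4 given markers, Stap1 and Stap2, the 10 genes of smallest p whose groups do not overlap, up to 4 members of highest mean CPM per other list with any called member, the 10 largest and 10 smallest ratios to mature B cells, and the 5 smallest p of the difference between classes. Pax5, Fcmr, Xbp1, Mzb1 and the markers of other cells were named beside these after their values were seen. Some genes that these rules name are not reported here.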

Additional observations from a re-analysis of the deposited data

How the results depend on the processing

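All 4 share results kept their direction under every alternative that left out no mouse, and no exact test of 2 against 2 mice could pass. With a mouse left out, the difference in the share of cycling members ran from -11.1 to 4.57 percentage points. Within precursors, 2 calls became 0 when 2 or more counts over the precursor genes were required, 0 without cells holding markers of other types and 0 when cells with counts of Cd3d, Cd3e, Cd3g, P2ry12 or Siglech were admitted, 14 with DESeq2 and 64 with no filter on low counts; with a mouse left out it ran from 5 to 325. In the admitted set S100a9 and S100a8 turned to -1.45 and -1.42 on the log2 scale. The difference between precursors and mature B cells went from 0 calls to 5 in that set, 1 without Jchain cells, 15 with no filter, 29 against all other kept cells, and 1 to 19 with a mouse left out. The filter on markers of other types takes out every member with S100a8 and S100a9, so the loss of their calls under it was fixed in advance. The cause of the other changes was not tested. Admitting those cells and leaving out Jchain cells were chosen after the data were seen.

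By the labels, equal replicate numbers do not pair the mice. Deviations of same-numbered mice from their group means correlated at -0.041. With 2 mice per group the deviations mirror each other and both pairs give the same value, so it cannot decide whether mice were paired. A fit with the replicate number as a block called 5 genes.

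In the edgeR test described in the processing, S100a8 and S100a9 were the only ones called of 80 named genes with a fold change, while DESeq2 also called Jchain, Srm, Lcn2, Prdx1, Mmp8, Gstp1, Ifitm6 and Gimap7. Jchain was also called with the replicate block and without cells above 3 times the median total. Of the others 46 changed sign under at least 1 alternative. The 322 members, with 40 in untreated mouse 2, limit what these sums can show.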

Other observations

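Lists outside B cell development gave no call in the precursors. Of 9 interferon-stimulated genes tested, both inhibitor mice lay above both untreated mice in 1 and below in 3, against 22.2% and 15.5% of all genes, with a median log2 fold change of -0.68. Ly6a (Sca-1) had 11.8 and 18.97 CPM in inhibitor mice, against 6.52 and 1614 CPM in untreated mice, and without the Jchain cells 6.82 and 116 CPM in untreated mice; its largest single cell held 324 counts. Ifi27l2a, Psmb8 and Irf1 had log2 fold changes of 0.28 ± 0.40, -0.79 ± 0.37 and -0.17 ± 0.36. Of 8 apoptosis genes tested, the survival gene Mcl1 and the genes Trp53 and Bax overlapped between the groups.

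Of 20 cytosolic ribosomal protein genes, 19 had a negative log2 fold change, against 49.9% of all genes, and the median was -0.17. Both inhibitor mice lay below both untreated mice in 7, against 15.5% of all genes, and in 2 without the Jchain cells, against 13.5%. The list summed to 39143 and 41320 CPM in inhibitor mice, against 45615 and 41093 CPM in untreated mice, so the groups overlapped. Mitochondrial transcripts summed to 42972 and 42642 CPM in inhibitor mice, against 41235.5 and 34660.3 CPM in untreated mice, and the median of the 13 genes was 0.07. Of 16 stress and immediate early genes, both inhibitor mice lay above both untreated mice in 7 and below in 2, against 22.2% and 15.5% of all genes. Their median log2 fold change was 0.21. Without the Jchain cells the counts were 2 and 2, against 18.2% and 13.5% of all genes. Hsp90aa1 ran against that median, with 499 and 586 CPM in inhibitor mice, against 1025 and 733 CPM in untreated mice (-0.77 ± 0.24). Jun, Jund and Hspa8 had log2 fold changes between -0.37 and 0.36. None of these genes had an adjusted p under 0.05 by edgeR.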
